A study of Mus musculus with 17 samples.

Results

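The ABC transporters are the ATP-binding cassette proteins, named here by gene symbols that run from Abca through Abcg. A gene was counted as a member when the array's own gene name was Abc, a subfamily letter from a to g, a number and at most a closing a or b, and the probe with the highest mean over all arrays stood for it. This gave 50 genes of 28090 gene names on the array, read by 98 probes: 16 in subfamily A, 10 in B, 10 in C, 4 in D, 1 in E, 3 in F and 6 in G. All 50 symbols are protein-coding genes in RefSeq (GRCm38.p6), which held no further symbol of this pattern. ABC proteins with other symbols, such as Tap1 and Cftr, are outside this count.

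Expression was read in 6 populations sorted from the bone marrow of female C57Bl/6 mice aged 6 to 8 weeks, with 10 to 20 mice pooled for each replicate sample by the methods, and the labels name no treatment or altered allele in any group. Bulk marrow was depleted of cells carrying B220, CD3, GR-1 or Ter119 and enriched for c-kit. Long-term HSC (LT-HSC, 2 arrays), short-term HSC (ST-HSC, 3 arrays) and multipotent progenitors (MPP, 3 arrays), together the HSC subsets, came from one kind of sort, and common myeloid (CMP), granulocyte-monocyte (GMP) and megakaryocyte-erythroid (MEP) progenitors, 3 arrays each, came from another. The labels number 2 arrays of each population but LT-HSC and leave 1 without a number; of the LT-HSC arrays, 1 has no number and 1 is described as replicates 2 and 3 combined. All levels below are quantile-normalised log2 intensities of a single probe, so they compare populations for a gene and not one gene with another, and in pooled sorted cells a smaller share of expressing cells and less RNA per cell cannot be told apart.

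An ABC transporter binds and hydrolyses ATP at paired nucleotide-binding domains and uses the energy to move a substrate across a membrane. Subfamily A moves mainly lipids. Subfamily B holds drug pumps, the bile lipid and bile salt exporters, and transporters of mitochondria and lysosomes, and subfamily C holds exporters of organic anions and drug conjugates together with the sulfonylurea receptors. Subfamily D holds importers of fatty acids into peroxisomes and a lysosomal cobalamin transporter, subfamilies E and F have no membrane domain and act in translation, and subfamily G moves sterols and drugs. In bone marrow the family is best known for the efflux of Hoechst and rhodamine dyes by Abcg2 and P-glycoprotein, which has long been used to enrich stem cells, and for the efflux of cholesterol by Abca1 and Abcg1, which limits the growth of stem and progenitor cells.

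The arrays differed in ways that touch these results. The LT-HSC array without a number was the dimmest (upper quartile of spot intensity 53.1, elsewhere 243.3 or more), and 26 members were well above background on it, against 30 on the pooled LT-HSC array and 23 to 39 over all arrays. Of all spots other than controls, 41.4% were well above background on it, 54.6% on the pooled array and 41.4% to 70.1% over all arrays. The scan records fall in 3 periods. Period 1 holds replicates 1 and 2 of CMP, GMP and MEP, period 3 holds both LT-HSC arrays and replicates 2 and 3 of ST-HSC and MPP, and only period 2, which holds the unnumbered arrays of all populations other than LT-HSC, spans both kinds of sort. Differences of members between HSC subsets and myeloid populations are therefore given also within period 2 or with the period in the fit. Of the defining mRNAs, 6 of 6 HSC marker genes were higher in LT-HSC than in the mean of the others, 5 of 5 GMP markers in GMP and 5 of 5 MEP markers in MEP. Of 5 sort markers, 4 were higher and 1 lower in the HSC subsets. Some did not follow the labels: Ly6a, which encodes Sca-1, averaged 9.71 in GMP and 8.88 in ST-HSC, Flt3 averaged 8.24 in LT-HSC and 6.86 in ST-HSC, and the HSC marker Hlf was highest in MPP, at 12.98. Markers of other cells also moved. In the HSC subsets 5 of 6 B cell, 6 of 6 T cell, 4 of 6 mature neutrophil, 4 of 6 macrophage, 4 of 6 endothelial, 2 of 5 mast cell and 2 of 5 mature erythroid markers were higher than in the myeloid populations, with 1 macrophage, 1 endothelial and 1 mature erythroid marker lower. The mean level of the B cell list was 8.76 to 9.12 on the LT-HSC arrays, 6.88 to 7.49 in ST-HSC and MPP and 5.48 to 7.02 in the myeloid populations, and that of the T cell list was 5.38 to 6.77 on the HSC arrays and 3.69 to 5.21 on the myeloid ones. In MEP 5 of 5 mature erythroid markers were higher than elsewhere, with a mean level of the erythroid list of 10.21 to 11.54 on the MEP arrays against 5.28 to 9.50 on the rest. The part of these cells in the levels below was not tested.

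The probes that read the efflux pumps are shown first, because one pump has a pair of bright probes that gave opposite answers. Each is 60 bases long, and its first 30 bases are printed 5′ to 3′ in lower case, from the array's own sequence column, with the position on the plus strand of mm9. The Abcg2 probe covers more of the genome than its own length because its match is split in the genome. Exon and UTR annotation of these positions was not used here.
Abcb1a, chr5:8747979-8748038: atatattgtcccaactgggatattgtacat
Abcb1b, brightest probe, chr5:8865925-8865984: tccaggctggagcaaagcgctcatgagctg
Abcb1b, next brightest probe, chr5:8861441-8861500: aataaagcaactgaatgtccagtggctccg
Abcc1, brightest probe, chr16:14474551-14474610: cctacttatgagcatcgtttcgtggagaag
Abcg2, brightest probe, chr6:58640579-58642261: acggacaacagcacttgtgttaacagctat
Abcb1a, Abcb1b and Abcb4 are neighbours on chromosome 5. The Abcb1a probe and the 3 Abcb1b probes shared runs of at most 7 bases, and no run shared between these probes and the 2 of Abcb4 was longer than 8 bases. Probes were compared with probes only, which does not show which RNA a probe binds.

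Abcb1a and Abcb1b encode the mouse pair of P-glycoproteins, the broad drug pumps of the rhodamine assay. Abcb1a was at background on all 17 arrays, with values from 1.68 to 2.38, so no level or difference can be given for it. Abcb1b was well above background on 16 arrays. By its brightest probe it stood at 9.11 and 8.85 on the LT-HSC arrays, at 9.32, 9.44 and 9.06 in ST-HSC, and at 9.94, 10.12 and 9.56 in MPP. In CMP it was at 9.07, 8.96 and 9.56, in GMP at 8.78, 8.78 and 8.41, and in MEP at 4.59, 5.14 and 5.49. The 3 MEP arrays lay below the other 14, CMP lay within the range of the HSC subsets, and GMP lay just under it. MEP was lower than the mean of the other populations by 4.12 (SE 0.19, adjusted p = 7.21e-09, limma), with differences of -4.03 within period 1 and -3.65 within period 2. The HSC subsets were higher than the myeloid populations by 1.73 (adjusted p = 1.39e-06), and by 1.49 within period 2.

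The next brightest Abcb1b probe, above background on all 17 arrays, went the other way. It stood at 11.14, 10.81 and 10.05 in MEP and between 6.67 and 9.08 on the other 14 arrays, without overlap. In the probe-level fit MEP was higher by 2.85 (SE 0.26, adjusted p = 2.11e-06, limma over all probes), GMP was lower by 1.42 (adjusted p = 0.00176), and the HSC subsets were lower than the myeloid populations by 1.05 (adjusted p = 0.000864). The third Abcb1b probe, above background on 7 arrays, passed in none of these comparisons. With the mean of the Abcb1b probes in place of the brightest, the MEP difference was -0.91 (adjusted p = 0.00828) and the difference between HSC subsets and myeloid populations was 0.13 (adjusted p = 0.607). From LT-HSC through ST-HSC, MPP, CMP and GMP to MEP, the next brightest probe averaged 8.33, 7.30, 7.66, 8.68, 7.11 and 10.67. In the same order the brightest Abcb4 probe averaged 13.62, 11.62, 10.96, 12.71, 9.30 and 15.23, so both were highest in MEP and lowest in GMP. The brightest and next brightest Abcb1b probes carry the same gene name. Which of them reads the Abcb1b transcript, and whether either binds Abcb4 RNA, was not tested.

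Abcc1 encodes MRP1, an exporter of glutathione and drug conjugates. Its brightest probe was above background everywhere and varied little, from 9.66 to 10.82 over all 17 arrays. The 3 MEP arrays, at 9.90, 9.83 and 9.66, were below the other 14, which began at 10.32. MEP was lower by 0.73 (SE 0.10, adjusted p = 8.93e-05), and its other 2 probes were lower in MEP too, by 0.50 and 0.46 (adjusted p = 0.0276 and 0.0321). The HSC subsets were higher than the myeloid populations by 0.35 (adjusted p = 0.00315), and by 0.51 within period 2, but the other probes gave -0.10 and -0.11 over all arrays and did not pass, and the mean of all probes gave 0.05 (adjusted p = 0.725).

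Abcg2 encodes BCRP, the pump behind the Hoechst side population. It was highest in MEP, at 11.89, 11.67 and 11.61, next in LT-HSC, at 11.18 and 10.53, and in ST-HSC, at 10.49, 10.85 and 10.46. MPP stood at 10.17, 10.48 and 9.65, CMP at 10.22, 10.03 and 9.65, and GMP lowest at 9.63, 9.74 and 9.30. No MEP array overlapped another population, while LT-HSC overlapped ST-HSC, MPP overlapped CMP, and 1 GMP array lay above the lowest MPP and CMP arrays. MEP was higher than the others by 1.51 (SE 0.19, adjusted p = 3.33e-05), with 1.88 and 1.84 within periods 1 and 2, and GMP was lower by 1.09 (adjusted p = 0.00106). LT-HSC was 0.47 above the mean of the others, which did not pass (adjusted p = 0.166). The HSC subsets minus the myeloid populations gave 0.10 (adjusted p = 0.605), and -0.13 within period 2. By the second Abcg2 probe MEP was higher by 1.66 and GMP lower by 0.96 (adjusted p = 0.00112 and 0.0485).

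**Figure D1:**
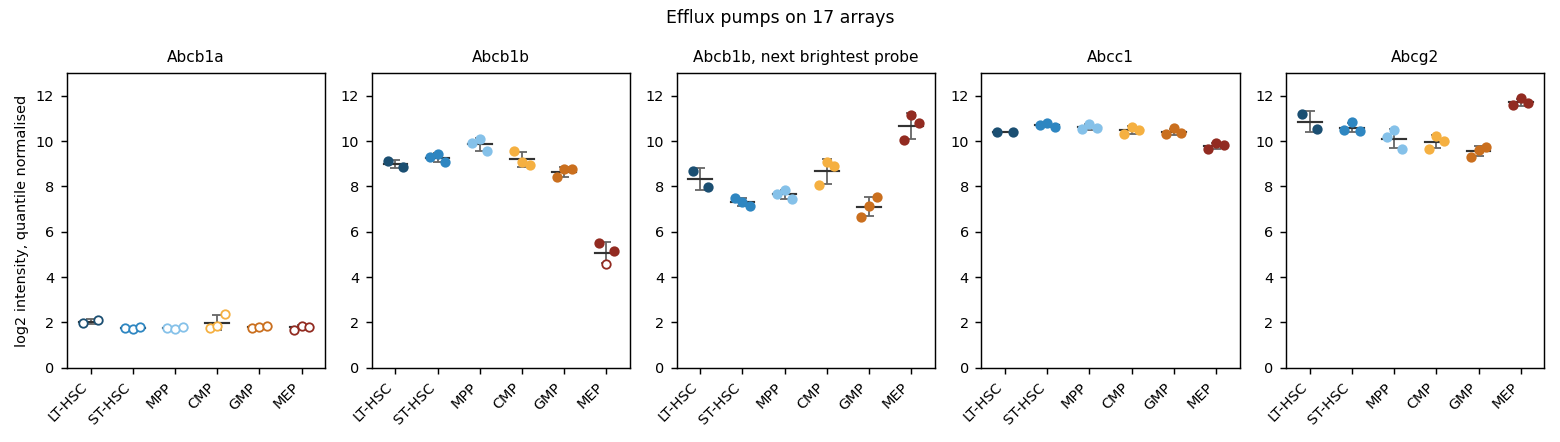
Quantile-normalised log2 intensity (vertical axis) of the efflux pumps on each array (points) in the 6 populations (horizontal axis); lines and bars are the mean and SD of 2 LT-HSC arrays and 3 arrays elsewhere, and open points are arrays not well above background. Abcb1a lies at background throughout, the brightest Abcb1b probe averages 5.07 in MEP where the next brightest one averages 10.67, Abcc1 is nearly level, and Abcg2 is highest in MEP.

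By the probe that stood for each gene, 21 members were well above background on all arrays, 24 on some and 5 on none (Abca8b, Abca16, Abcb1a, Abcb5 and Abcc10); none was saturated. A second Abca8b probe was above background on 2 arrays. The F-test over the 6 populations passed for 28 of the 50 at an adjusted p under 0.05, or 56%, where 40.2% of all gene names passed. By subfamily these were 7 of 16 in A, 6 of 10 in B, 6 of 10 in C, 2 of 4 in D, 0 of 1 in E, 3 of 3 in F and 4 of 6 in G. MEP had 22 members well above background on all its arrays, and ST-HSC 31.

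**Figure D2:**
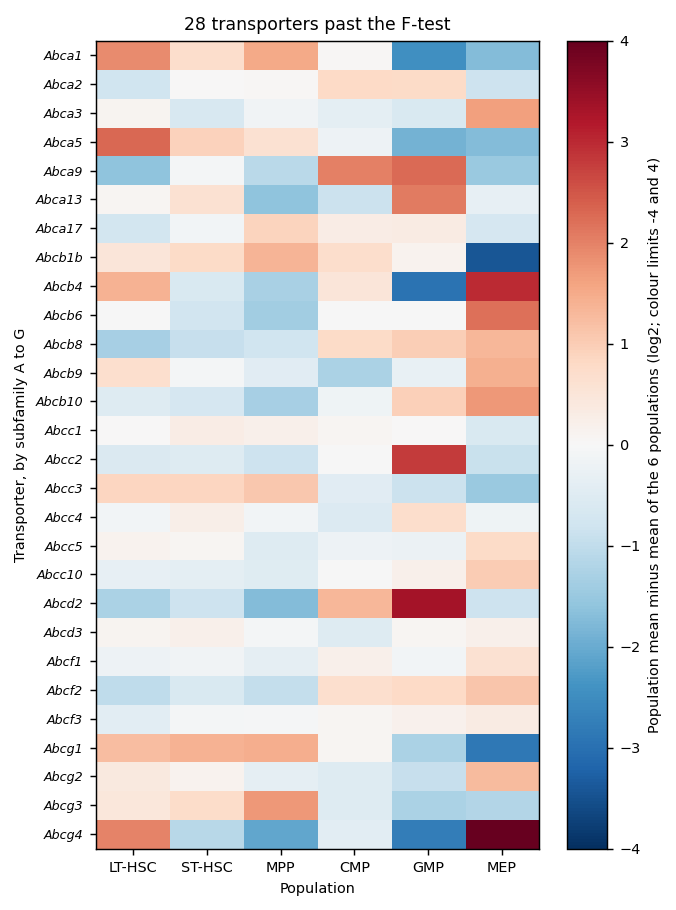
Mean log2 level in each population (columns) relative to the mean of the 6 populations, for the 28 transporters (rows, by subfamily) that passed the F-test; red is above and blue below, with colour limits at -4 and 4. Abca1 and Abcg1 are red in the HSC subsets and blue in GMP and MEP, Abcb4 and Abcg4 are red in MEP and LT-HSC and blue in GMP, and Abcd2 and Abcc2 are red in GMP.

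Between HSC subsets and myeloid populations, 8 members were higher and 14 lower in the HSC subsets, 16% and 28%, beside 21.7% and 19.1% of all gene names. The median difference over the members was -0.02, against 0.04 over all genes. The higher members were Abca1, Abca5, Abcb1b, Abcc1, Abcc3, Abcg1, Abcg3 and Abcg8, and the lower ones included Abcb6, Abcb8 and Abcb10 and all 3 of F. Within period 2, 19 of the 22 kept their direction, while Abca2, Abcf3 and Abcg8 did not, and with the scanning period in the fit 5 were called higher and 5 lower, of which 9 were among the 22. With the authors' normalised values 10 were higher and 11 lower. How far the B cell, T cell and other markers given above had a part in these differences was not tested.

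Abca1, which loads cholesterol and phospholipid onto apolipoprotein A-I, was at 9.22 and 9.56 in LT-HSC, 8.18, 8.42 and 8.0 in ST-HSC and 9.24, 9.0 and 8.79 in MPP. It was at 7.31, 7.35 and 7.94 in CMP, 5.14, 4.81 and 5.2 in GMP, and 4.58, 5.74 and 6.95 in MEP, where replicate 1 was not above background. Every HSC array lay above every myeloid array, with CMP between the groups. The HSC subsets were higher by 2.75 (SE 0.26, adjusted p = 3.15e-06), by 1.70 within period 2, and by 1.93 with the period in the fit (adjusted p = 0.00803).

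Abcg1, which exports sterol to HDL particles, was between 11.21 and 11.74 on all 8 HSC arrays, then 9.97, 10.02 and 10.55 in CMP, 8.91, 8.59 and 9.01 in GMP, and 6.57, 7.15 and 8.01 in MEP. The populations after MPP did not overlap one another, and the HSC subsets overlapped throughout. The difference between HSC subsets and myeloid populations was 2.71 (SE 0.18, adjusted p = 1.51e-07) and 2.15 within period 2. Abca1 and Abcg1 have 1 probe each.

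Of the other members higher in the HSC subsets, Abca5, a lysosomal lipid transporter, was above background on 7 of 8 HSC arrays and on no myeloid array, which makes it at least 5.71-fold higher (adjusted p = 5.82e-07), where "at least" bounds the level on the dim side by background and leaves the spread between arrays aside. That rests on 1 of its 5 probes, since the remaining 4 were above background on at most 3 arrays, and the mean of all probes gave 0.39 on the log2 scale. Within period 2 the brightest Abca5 probe differed by 2.16, with the myeloid arrays at background. Abcc3 (MRP3), an exporter of glucuronide conjugates, was between 6.07 and 6.52 on the HSC arrays and between 2.47 and 5.16 on the myeloid ones, a difference of 1.86 (adjusted p = 7.18e-05), but with the period in the fit it was 1.39 and did not pass (adjusted p = 0.078). Abcg3, a rodent relative of Abcg2, was above background on 7 HSC arrays and no myeloid array, at least 3.38-fold higher (adjusted p = 0.00292; 0.0867 with the period in the fit), with a log2 difference of 1.96 that was 1.37 without the pooled and 2.54 without the unnumbered LT-HSC array. Abcg8, which exports sterols as a dimer with Abcg5, passed over all arrays (adjusted p = 0.0188), with 4 of 8 HSC arrays and no myeloid array above background, but its difference within period 2 was -0.49, so no fold is given. Those 4 were the ST-HSC and MPP arrays of period 3, which shared a slide and had the most spots above background. Abcg5 did not pass.

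Among the members lower in the HSC subsets, Abcb8, a transporter of the inner mitochondrial membrane, ran from 7.57 to 9.08 on HSC arrays and from 9.28 to 10.67 on myeloid arrays. The difference was -2.04 (SE 0.25, adjusted p = 2.76e-05) over all arrays and -0.63 within period 2, and it passed with the period in the fit at -0.66 (adjusted p = 0.036). Abcb10, which acts in mitochondria and is needed for red cell formation, was lower by 1.68 (adjusted p = 2.57e-06), and by 1.43 within period 2. Abcb6, a porphyrin transporter, was lower by 1.44 (adjusted p = 2.45e-06), and by 1.59 within period 2. Abcf2, a cytosolic ABC protein without membrane domain, was lower by 1.71 without overlap (adjusted p = 6.3e-06) and by 0.84 within period 2. Abcf1, which binds the initiation factor eIF2, was lower by 0.48 (adjusted p = 0.000319; 0.124 with the period in the fit), and Abcf3 by 0.38 (adjusted p = 0.00753; 0.787 with the period).

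Of the other lower members, Abcd2, Abca9 and Abcc2 had their highest mean in GMP or CMP. Abcd2, which carries very long chain fatty acids into peroxisomes, differed by -2.55 (adjusted p = 0.000289) and by -0.62 with the period in the fit (adjusted p = 0.55). Abca9, a close relative of Abca5 and Abca6, differed by -1.85 (adjusted p = 7.28e-05; 0.0857 with the period in the fit). Abcc2 (MRP2), the bilirubin conjugate exporter of liver, was above background on no HSC array and was at least 2.37-fold lower (adjusted p = 0.000418; 0.0705 with the period in the fit). Abcg4, Abca2 and Abca3 passed at -0.81, -0.49 and -0.45 (adjusted p = 0.0448, 0.0493 and 0.0248). With the period in the fit none of these passed (-0.12, 0.37 and -0.52, adjusted p = 0.929, 0.343 and 0.0501), and for Abcg4 and for Abca2 the call was lost on leaving out any one of 11 of the 17 arrays. Abcc10 and Abca16 also passed but were above background on no array.

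**Figure D3:**
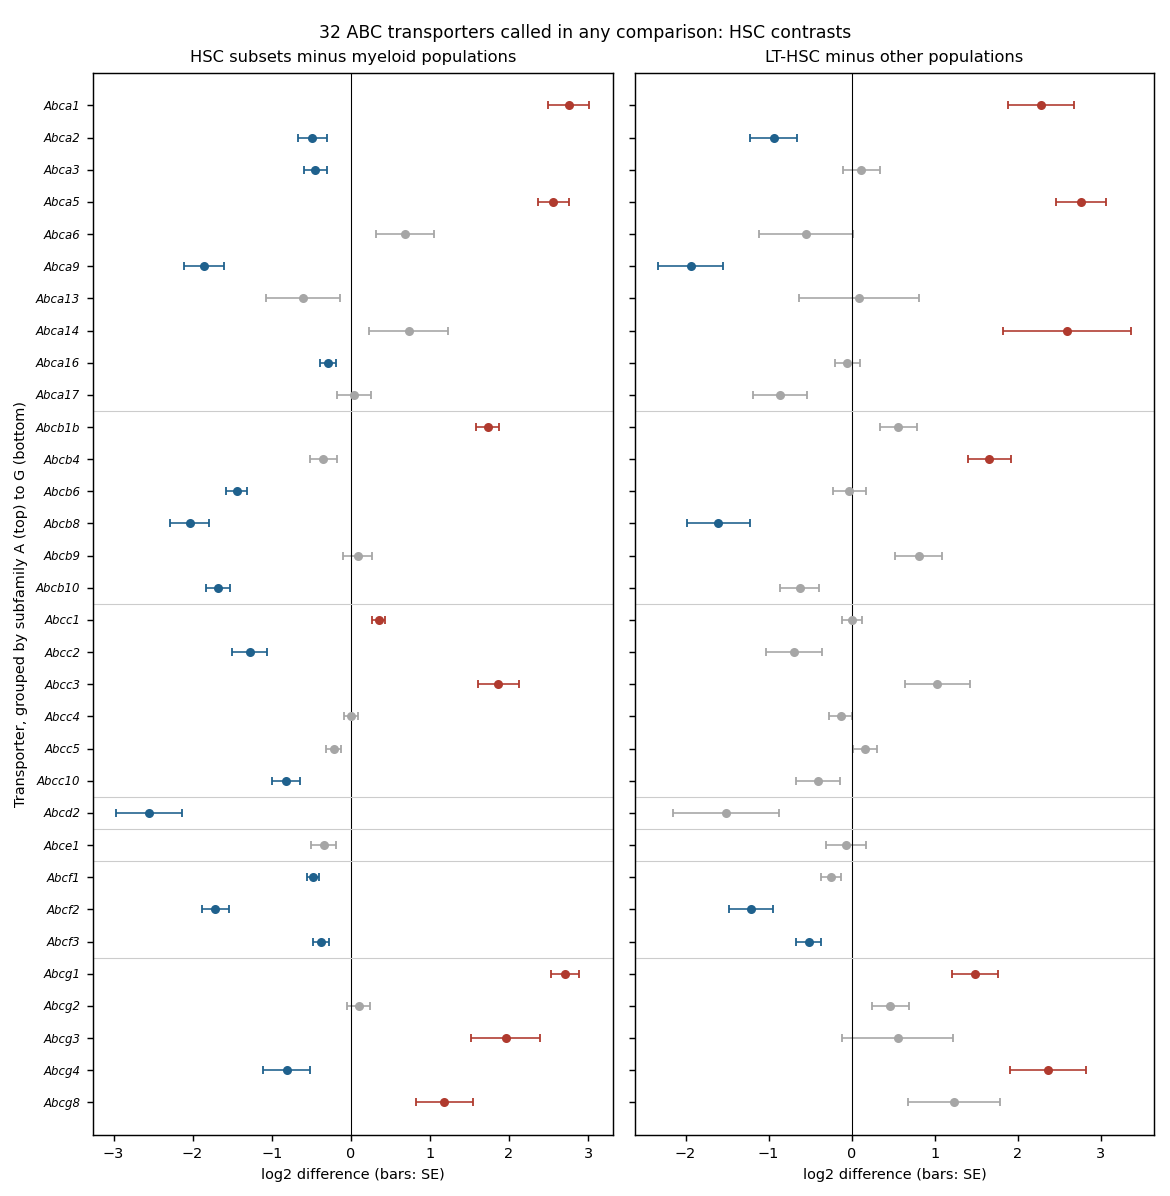
Log2 difference (horizontal axis, bars are SE) for the 32 transporters that passed in at least 1 of the 4 comparisons (vertical axis, by subfamily), for HSC subsets minus myeloid populations (left) and LT-HSC minus the other populations (right); red and blue points passed at an adjusted p under 0.05 as higher or lower, grey points did not. Abca1 (2.75) and Abcg1 (2.71) lie farthest right on the left panel, Abcd2 (-2.55) farthest left, and Abca5 (2.76) is the highest on the right panel.

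In LT-HSC against the mean of the other populations, 6 members were higher and 5 lower, or 12% and 10%, beside 11.4% and 9.43% of all genes. Here 2 arrays stand against 15, and under 75th percentile normalisation 12 were higher and 3 lower. In LT-HSC, 4 of 5 MEP markers, 4 of 6 B cell, 4 of 6 T cell, 3 of 6 neutrophil, 4 of 6 endothelial and 1 of 5 mature erythroid markers were higher too, 1 endothelial and 2 macrophage markers were lower, and the mean level of the MEP list was 10.92 to 11.90 on the LT-HSC arrays, 9.46 to 10.03 in ST-HSC and 6.74 to 7.88 in MPP; the part of these genes' cells in the values below was not tested. Abcb4, the phosphatidylcholine flippase of bile, stood at 14.13 and 13.11 in LT-HSC, above all ST-HSC, MPP and GMP arrays and below MEP, with CMP replicate 1 at 13.16 between them. It was higher by 1.66 (SE 0.26, adjusted p = 0.000943), and by 2.32 against ST-HSC and MPP within period 3, while the mean of its 2 probes gave 1.02 (adjusted p = 0.0892). Abcg4, a sterol exporter related to Abcg1, stood at 9.54 and 8.34, above every array but those of MEP, and was higher by 2.36 (SE 0.46, adjusted p = 0.00383) and by 3.91 within period 3, although without the pooled array the adjusted p was 0.059. Abca1 was higher by 2.28 (adjusted p = 0.00189) and Abcg1 by 1.49 (adjusted p = 0.00272), but within period 3, against ST-HSC and MPP, Abca1 differed by 0.68 with overlap and Abcg1 by -0.26. Abca5 was higher by 2.76 (adjusted p = 5.59e-05), with 1 of the 2 LT-HSC arrays above background, and by 1.52 within period 3.

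The remaining calls in LT-HSC were less firm. Abca14 passed (adjusted p = 0.0311) through a single value, 7.43 on the dim unnumbered array against 2.38 on the pooled one, and without the dim array its difference was 0.07 (adjusted p = 0.925). The lower members were Abca9, at least 3.06-fold lower (adjusted p = 0.00488), Abcb8 by 1.61, Abcf2 by 1.21, Abca2 by 0.94 and Abcf3 by 0.52 (adjusted p = 0.011, 0.00766, 0.0316 and 0.0278). With the dim array left out, 1 member was lower in place of 5, and with the pooled array left out, 3; within period 3, Abcb8 and Abcf2 differed from ST-HSC and MPP by -0.09 and -0.03. No member of subfamilies C, D or E passed in LT-HSC.

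In GMP against the mean of the others, 9 members were higher and 8 lower, or 18% and 16%, beside 9.93% and 10.1% of all genes, and 11 were lower under 75th percentile normalisation. Of markers of other cells, 3 of 6 macrophage and 1 of 5 mast cell markers were higher in GMP, and 2 of 6 macrophage, 3 of 6 endothelial, 4 of 6 T cell and 5 of 5 mature erythroid markers were lower, with 1 endothelial marker higher and 1 B cell marker each way; their part was not tested. Within period 2 all 17 kept their direction, and within period 1, where GMP stands only against CMP and MEP, 13 did. Abcd2 was at 7.59, 8.37 and 7.98 in GMP, then 5.80, 6.44 and 5.64 in CMP, and between 2.20 and 4.76 on the other 11 arrays. GMP and CMP each stood apart from the rest without overlap. The GMP difference was 4.01 (SE 0.54, adjusted p = 0.000157), with 2.69 and 3.68 within periods 1 and 2. Abcc2 was above background on the 3 GMP arrays alone, at 5.66, 5.77 and 6.09, against at most 3.77 elsewhere, which makes it at least 10.2-fold higher in GMP (adjusted p = 3.27e-06).

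Abca9 was higher in GMP by 2.71 (adjusted p = 7.21e-05), with GMP at 5.29, 5.98 and 5.12 and CMP at 4.61, 5.55 and 5.45 overlapping each other. Abca13, a very large lipid transporter, was at 7.41, 6.46 and 6.74 in GMP and at most 5.80 elsewhere, a difference of 2.50 (adjusted p = 0.0103) that did not pass without GMP replicate 1 (adjusted p = 0.069) or with the period in the fit (adjusted p = 0.138). Abcc4 (MRP4), an exporter of cyclic nucleotides and prostaglandins, was at 11.25, 11.18 and 11.45 in GMP and between 9.88 and 10.92 elsewhere, higher by 0.85 (adjusted p = 0.000186) and by 1.07 and 1.02 within periods 1 and 2. Abcb10 was higher by 1.16, Abcb8 by 1.17, Abcf2 by 0.97 and Abca2 by 0.91 (adjusted p = 0.00101, 0.0209, 0.00788 and 0.0149). Within period 1, against CMP and MEP alone, Abcb10 differed by 0.02, Abcb8 and Abcf2 by -0.16 and Abca2 by 0.80. The calls of Abca2, Abcb8 and Abcf2 were lost with the period in the fit and without GMP replicate 2. Those of Abca2 and Abcb8 were lost also without GMP replicate 1.

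Of the members lower in GMP, the largest difference was that of Abcb4, at 9.48, 9.17 and 9.25 against 10.82 or more on every other array, a difference of -3.53 (SE 0.22, adjusted p = 2.87e-07). Its second probe was lower in GMP by 2.77 (adjusted p = 0.0026). Abcg4 was at 3.73, 3.83 and 5.0 in GMP, with 1 of 3 arrays above background, and lower by 3.33 (adjusted p = 4.59e-05). Abca1 was lower by 2.93 (adjusted p = 4.08e-05), Abcg1 by 1.53 (adjusted p = 0.000391) and Abca3 by 0.72 (adjusted p = 0.0146), and within period 1, against CMP and MEP, Abca1 differed by -1.27 with overlap and Abcg1 by 0.32. The other Abca3 probe above background on all 17 arrays differed by 0.24 (adjusted p = 0.72), so the probes did not share the direction. Abca5, above background on no GMP array, was at least 4.72-fold lower. Abcc3 passed at -1.04 (adjusted p = 0.0429), was 0.24 within period 1, and lost its call on leaving out any one of 12 of the 17 arrays.

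In the main fit MEP had the most calls: 14 members were higher and 11 lower, or 28% and 22%, beside 15.8% and 15.1% of all genes. Under some alternatives HSC subsets against myeloid populations had more, as with numbered arrays alone (32 against 27 in MEP). All 25 kept their direction within period 1 and within period 2, and with the period in the fit 17 were higher and 11 lower. Subfamily B contributed 5 of its 10 to the higher members, and all 3 of F and the 1 of E were higher too, while 6 of 16 in A were lower. Beside the mature erythroid markers given above, 5 of 6 endothelial, 3 of 6 B cell, 2 of 6 T cell, 3 of 6 macrophage and 3 of 5 mast cell markers were lower in MEP, and their part was not tested.

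Abcg4 was at 11.47, 11.17 and 11.53 in MEP, 9.54 and 8.34 in LT-HSC, and at most 7.39 on the other arrays. No MEP or LT-HSC array overlapped any other population. MEP was higher by 5.31 (SE 0.39, adjusted p = 2.37e-07), with 6.02 and 5.76 within periods 1 and 2. Abcb4 followed the same order, at 15.26, 15.11 and 15.32 in MEP and at most 14.13 elsewhere, higher by 3.59 (SE 0.22, adjusted p = 5.09e-08), and its second probe by 5.42 (adjusted p = 4.49e-06).

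The mitochondrial and porphyrin transporters Abcb6, Abcb8 and Abcb10 were higher in MEP. Abcb6 was at 11.36, 11.21 and 11.46 in MEP and between 7.42 and 9.45 on the other 14 arrays, higher by 2.64 (SE 0.17, adjusted p = 8.13e-08). Abcb10 was at 9.77, 9.52 and 9.28 in MEP, with the nearest values in GMP at 8.90, 8.51 and 8.85, higher by 2.08 (adjusted p = 2.82e-06). Abcb8 was higher by 1.58 with overlap (adjusted p = 0.00189), and by 0.49 and 0.61 within periods 1 and 2 without overlap. Of 9 partner genes of these transporters in iron-sulfur and heme metabolism, 5 were higher in MEP and 0 lower, among them Glrx5 by 2.00, Fech by 1.88, Aco1 by 1.51 and Nfs1 by 1.09, each without overlap, where 15.8% of all genes were higher. Their median difference in MEP was 1.09, against 0.00 over all genes.

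Other members higher in MEP were Abca3, the lamellar body lipid transporter of lung, by 1.99 without overlap (adjusted p = 2.33e-06), Abcb9, a lysosomal peptide transporter, by 1.72 without overlap (adjusted p = 8.55e-05), and Abcc5 (MRP5) by 0.93 without overlap (adjusted p = 4.51e-05). The members of E and F were also higher: Abcf2 by 1.32, Abcf1 by 0.74, Abce1, the ribosome recycling factor, by 0.66, and Abcf3 by 0.38 (adjusted p = 0.000481, 7.71e-05, 0.0238 and 0.0342). Abce1 did not pass without MEP replicate 1 or 2 (adjusted p = 0.103 and 0.0911). Abcf3 did not pass with the period in the fit, with slide as a random block, or on leaving out each MEP array in turn. Of 10 partners of these proteins in termination, recycling and initiation, 4 were higher in MEP and 0 lower, where 15.8% and 15.1% of all genes were. Abcc10 also passed without being above background on any array.

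Lower in MEP, beside Abcb1b and Abcc1, were Abcg1 by 3.44 (SE 0.23, adjusted p = 1.17e-07) and by 2.51 and 2.54 within periods 1 and 2, Abca1 by 2.08 (adjusted p = 0.000287) and Abca2 by 0.98 (adjusted p = 0.00607). Abcg1 did not overlap with other populations. Abca1 overlapped with GMP, and within periods 1 and 2 its difference was smaller, at -0.99 and -0.54, with overlap in both, while that of Abca2 was -1.62 and -1.56 without overlap. The remaining 6 were above background on no MEP array. At least 3.90-fold lower was Abca5, 2.90-fold Abca9, 2.71-fold Abca6, 2.08-fold Abcc2 and 1.48-fold Abca17 (adjusted p = 2.93e-05, 0.000931, 0.0235, 0.0118 and 0.0392, limma). Of the other 14 arrays, Abca9 was above background on 9, Abca5 on 7, Abca6 on 5, and Abca17 and Abcc2 on 3 each. For Abcc2 these were the GMP arrays. Calls of Abca6 and Abca17 were lost with the period in the fit, and those of Abcc2 and Abca17 under 75th percentile normalisation. For Abcc3 the bound of 3.4-fold rested on MEP replicate 2: its log2 difference was -1.77 over all arrays, -1.08 without that array, and -1.03 and -1.02 within periods 1 and 2. Averaged over its 5 probes, Abca5 differed by -0.16 (adjusted p = 0.344).

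**Figure D4:**
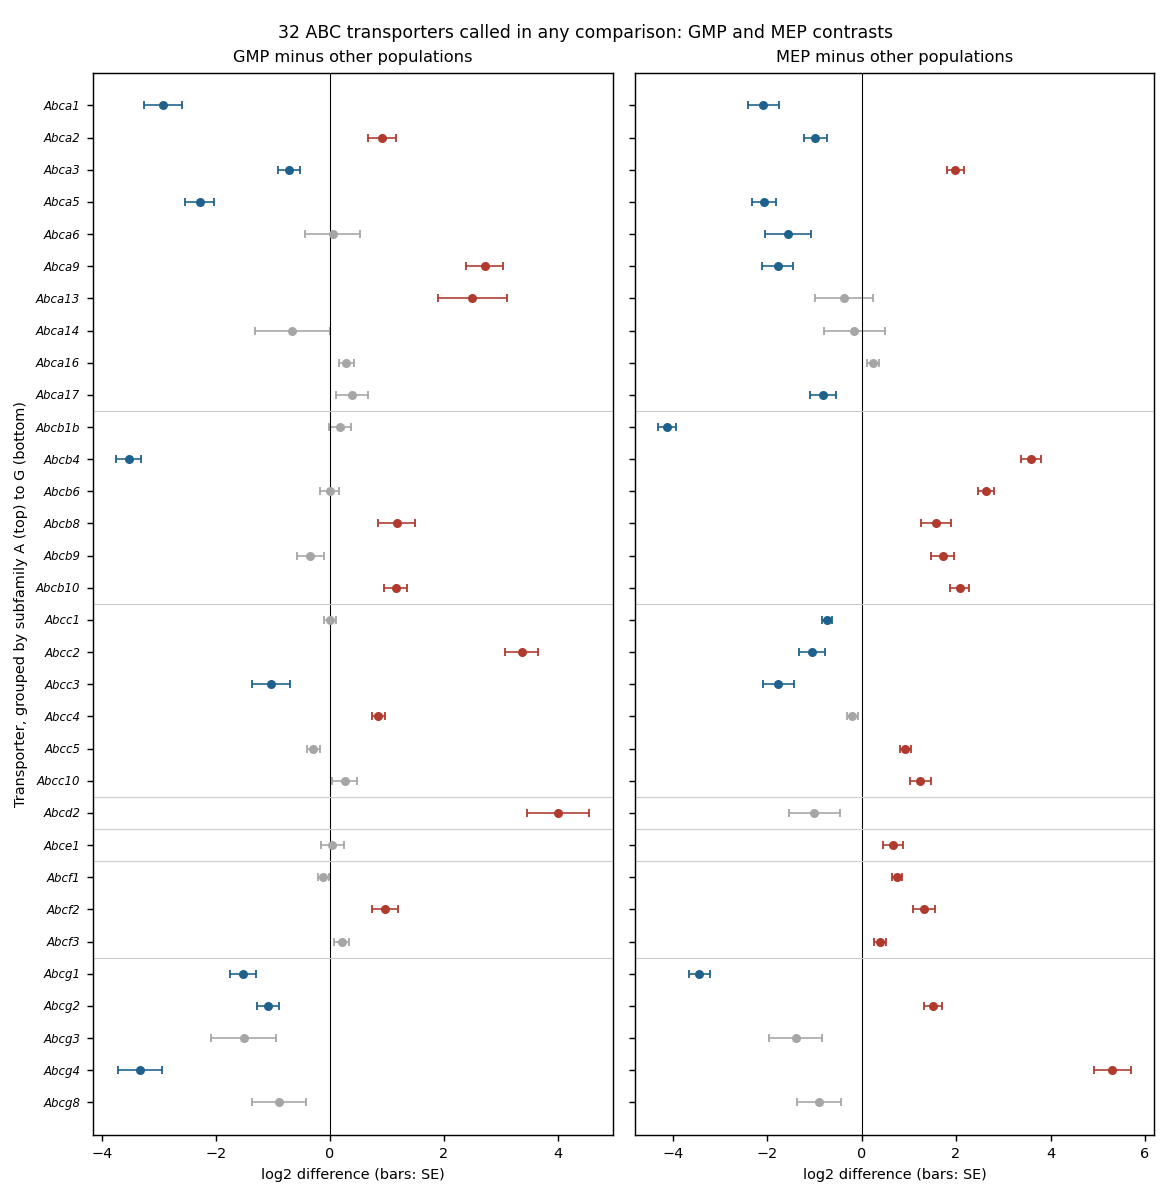
Log2 difference (horizontal axis, bars are SE) for the 32 transporters that passed in at least 1 of the 4 comparisons (vertical axis, by subfamily), for GMP (left) and MEP (right) minus the mean of the other populations; red and blue points passed at an adjusted p under 0.05 as higher or lower, grey points did not. Abcd2 (4.01) and Abcc2 (3.37 as fitted) lie farthest right in GMP and Abcb4 (-3.53) farthest left, whereas in MEP Abcg4 (5.31) and Abcb4 (3.59) lie farthest right and Abcb1b (-4.12, by its brightest probe) farthest left.

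**Figure D5:**
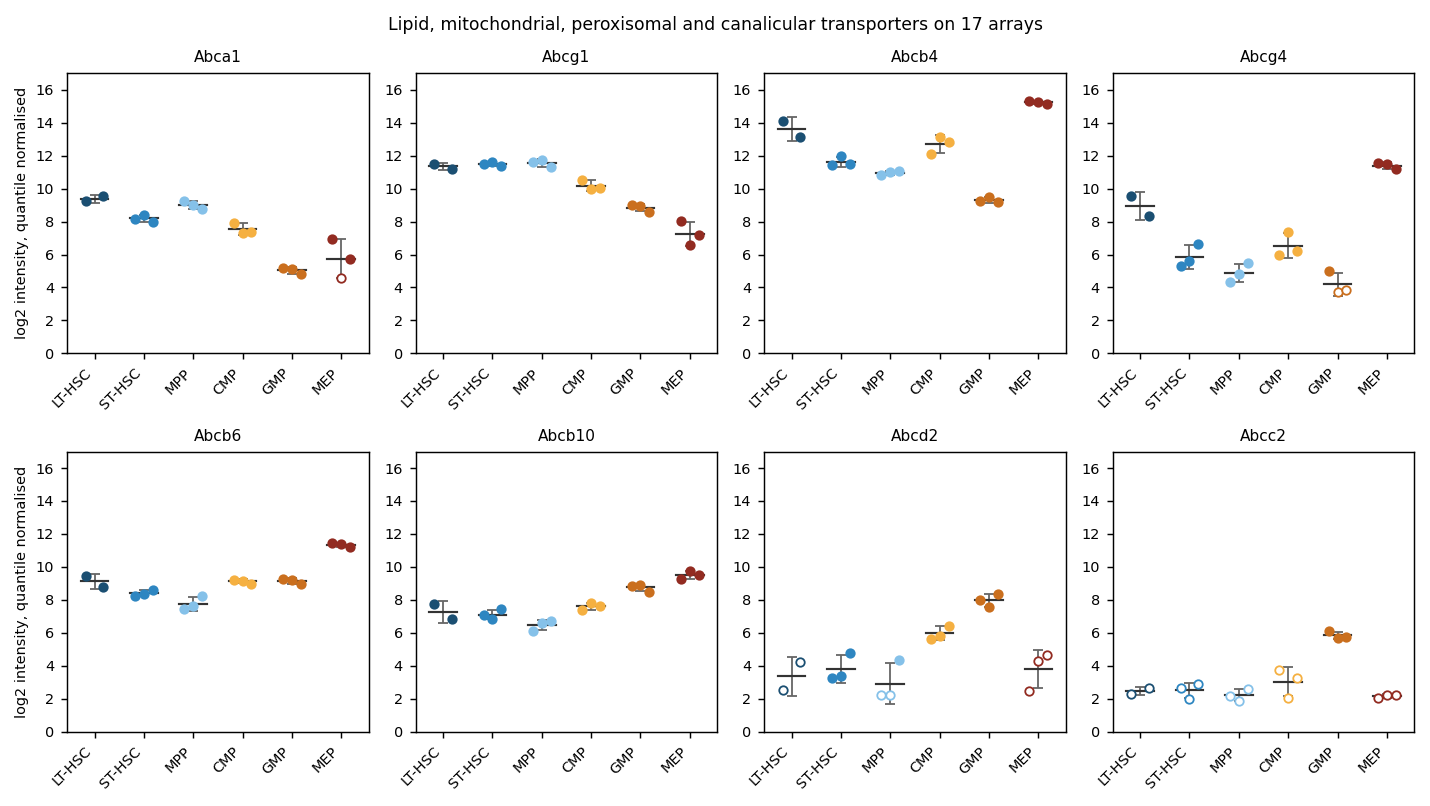
Quantile-normalised log2 intensity (vertical axis) of 8 transporters on each array (points) in the 6 populations (horizontal axis); lines and bars are the mean and SD of 2 LT-HSC arrays and 3 arrays elsewhere, and open points are arrays not well above background. Abca1 and Abcg1 step down from the HSC subsets to MEP and GMP, Abcb4 and Abcg4 are high in MEP and LT-HSC and lowest in GMP, Abcb6 and Abcb10 peak in MEP, and Abcd2 and Abcc2 peak in GMP.

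Sterol genes that work with Abca1 and Abcg1 were split between directions. Of 12, 4 were higher in the HSC subsets and 3 lower. The shares of all genes, 21.7% higher and 19.1% lower, are the background for this and the following lists. Mylip, which marks the LDL receptor for destruction and like Abca1 answers to the LXR receptors, was higher by 1.88, and Srebf2, the master factor of cholesterol synthesis, by 1.44, both without overlap (adjusted p = 7.79e-07 and 7.74e-08). Scarb1, the HDL receptor, was lower by 1.24 without overlap (adjusted p = 8.01e-07), and Lcat passed at -1.16 (adjusted p = 0.00142) with 1 of 8 HSC arrays above background. Among 14 xenobiotic receptors and other drug carriers, 6 were higher and 4 lower, led by the organic anion carrier Slco2b1 (2.85, adjusted p = 7.28e-05) and Ahr, the dioxin receptor (2.19 without overlap, adjusted p = 1.14e-06), and on the other side by Nr1i3 (-1.75, adjusted p = 0.0144) and Mvp, the major vault protein (-1.33, adjusted p = 0.0101).

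Of 8 peroxisomal genes, 2 were higher in the HSC subsets (among them Scp2 by 0.90, adjusted p = 7.29e-05) and 3 lower, led by Ehhadh at -1.47 and Pex19 at -0.70 (adjusted p = 0.000377 and 0.00566). Of the 9 iron-sulfur and heme genes, Ireb2 was higher by 0.48 (adjusted p = 0.0173) and 4 were lower, led by Aco1 at -1.02 and Glrx5 at -0.93 (adjusted p = 0.000385 and 0.0011). Of the 10 translation partners none was higher and 4 were lower, led by Gcn1l1 at -1.0 (adjusted p = 0.000244). Of the ABC proteins with other symbols, Tap1, which feeds peptides to MHC class I, was lower by 1.37 (adjusted p = 0.00677), and Tap2 and Cftr did not pass.

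By their brightest probes, the members not yet described passed in none of the 4 comparisons. Abca7, a phospholipid transporter linked to phagocytosis, was nearly level, between 13.37 and 13.80 over the population means, although its other probe, above background on 8 arrays, was lower in the HSC subsets by 1.86 and higher in MEP by 1.58 (adjusted p = 0.000397 and 0.00992). Abcd4, a lysosomal cobalamin transporter, stood between 8.10 and 8.45. Abcd3, the abundant peroxisomal membrane protein, passed only the F-test (adjusted p = 0.0279), with means from 11.05 in CMP to 11.76 in ST-HSC. Abcb11, the bile salt export pump, and Abcg5 were each above background on 4 arrays, as was Abcc8, a sulfonylurea receptor. For each of them these were the ST-HSC and MPP arrays of period 3. Abca8a was above background on 9 arrays without a passing difference. Abcc6 was above background on 3 arrays, Abca15 on 2, and Abca4, Abca12, Abcc9 and Abcc12 on 1 each. Abcb5 was at background on all 17, as was Abca8b by its brightest probe.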

How the data were processed

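RNA of the 6 sorted populations was labelled with Cy3, and 17 Agilent arrays of the mouse genome were read in that color alone. The authors deposited each array's scanner output, in which the processed intensity of a spot had been corrected for background by the Agilent software and not normalised between arrays, and a series table of quantile-normalised log2 values, used as an alternative only. Its columns ranked spots exactly as the deposited median intensity of the same array. Probe positions are those of the array annotation (mm9).

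Processed intensities were taken as log2 and quantile normalised over all spots in limma 3.58.1 under R 4.3.3, the methods' approach. Control spots (1639) and outlier spots were then dropped, 161 probe values being lost to them. Replicate spots were averaged to 1 value per probe, and the brightest probe stood for each of 28090 gene names. For 32 of the 50 members this was a choice among several probes. One mean per population was fitted with lmFit and eBayes, and contrasts and the F-test were adjusted by Benjamini-Hochberg over all 28090 genes and read at 0.05. Nothing in the labels says that the arrays of a population came from separate animals beyond the pooling stated in the methods, so p-values measure the spread between these arrays. A member above background on no array of one side was given a lower bound on its fold, from normalised means and each array's dimmest signal still above background. Simulated arrays had 200 of 27978 genes altered by set amounts and independent noise, with no effect of period or slide. On these the fit recovered 73% for HSC subsets against myeloid populations, 42% for LT-HSC, 53% for GMP and 59% for MEP. No recovered gene had the wrong sign. The real arrays differ in period and slide, and many more genes were called, so these shares do not carry over to them. The number of arrays limits precision.

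The members, related gene lists and marker lists were chosen with earlier results of these data known. Named members were the 4 efflux pumps and, per comparison and subfamily, the 2 with the largest called differences each way, those without overlap first; other called members are given more briefly. Related genes were named where called between HSC subsets and myeloid populations, the 2 largest each way per list, and those of the iron-sulfur list called in MEP were chosen after their values were seen. Some members and related genes are counted but not reported here by name. Elane, Hbb-b2 and Adgre1 had no probe under those names. Alternatives were 75th percentile normalisation, normexp with an offset of 50, the series table, a filter on dim probes, the mean of all probes, blocks for scanning period, slide (random) or replicate number, and leaving out LT-HSC or each array. A fit of the numbered arrays without a block was added after seeing the data.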

Additional observations from a re-analysis of the deposited data

How the results depend on the processing

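Of 60 differences of named members, 33 kept their direction and their side of the threshold under everything tried, among them Abca1 and Abcg1 between HSC subsets and myeloid populations, Abcd2, Abcc2 and Abcb4 in GMP, and Abcg4, Abcb4, Abcb6 and Abcg2 in MEP. Calls were lost with the direction kept in 48 of 565 values recomputed under other settings, 18 of them with the scanning period as a block, and in 49 of 1020 recomputed without 1 array. The difference of Abca2 between HSC subsets and myeloid populations turned to 0.37 with the scanning period as a block, so its call was lost there too (adjusted p = 0.343, limma). That of Abcg2, never called, turned to -0.0135 with the period, -0.1484 with the replicate block, -0.0181 with the mean of all probes, -0.0662 without LT-HSC and -0.0326 with numbered arrays alone, an alternative chosen after seeing the data; leaving out 1 array it ran from -0.0058 without the pooled LT-HSC array to 0.2114 without the unnumbered one. The number of members higher in HSC subsets than in myeloid populations, 8, was 5 with the scanning period and 13 with numbered arrays alone, and the number lower, 14, was 5 with the period and 22 with the mean of all probes. In LT-HSC, 6 higher became 12 and 5 lower became 3 under 75th percentile normalisation, and 5 lower became 1 with the period and 3 with slide as a random block. In GMP, 9 higher became 6 with the period. Leaving out 1 array at a time gave 24 to 31 members past the F-test, 8 to 9 higher and 10 to 15 lower in HSC subsets against myeloid populations, 6 to 7 higher and 1 to 7 lower in LT-HSC, 6 to 10 and 6 to 9 in GMP, and 12 to 15 and 9 to 12 in MEP. The 75th percentile normalisation shifted the median of all genes by 0.37 between HSC subsets and myeloid populations, 0.71 in LT-HSC and -0.32 in GMP, so that its differences stand relative to these shifts. Deviations of arrays with the same replicate number correlated at 0.06 to 0.19 where they shared a slide and at -0.08 to 0.18 where they did not. Each population had a single pair of numbered arrays, and in CMP, GMP and MEP replicate number and slide coincide. These correlations therefore do not decide whether the numbers pair the arrays, and the numbers were not taken as pairing. The correlation within slides used for slide as a random block was 0.38. With the replicate block on numbered arrays, 10 members were higher and 17 lower in HSC subsets and 15 and 10 in MEP, against 13 and 19, and 14 and 13, without the block on the same arrays. LT-HSC could not be tested on numbered arrays or without LT-HSC. The cause of these changes was not tested. Dim probes limit 29 members, which were not above background on every array.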
